A study of Mus musculus with 6 samples.

Results

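Kinesins and tubulins are the motors and the tracks of the microtubule cytoskeleton, and 54 of the 11736 genes listed in the deposited tables belong to them. They were chosen by gene symbol: symbols that begin with Kif and a digit, Klc and a digit, Tuba, Tubb or Tubg, leaving out pseudogene symbols and Kif19a. The choice was made with earlier results of these data known. The 54 members were 31 kinesin heavy chains, the kinesin-binding protein Kif1bp, 3 kinesin light chains, 4 α-tubulins, 8 β-tubulins, 2 γ-tubulins and 5 γ-tubulin complex proteins. The mouse annotation holds 65 protein-coding symbols that meet the rule, and the other 11 (Kif12, Kif17, Kif28, Kif2b, Kif6, Kif9, Klc3, Tuba3a, Tuba3b, Tuba8 and Tubal3) were not analysed here.

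The study profiled RNA of somatic cells of the XY mouse gonad at embryonic day E11.5, around the time when the gonad takes its male or female course. The controls, labelled Cdyl-Het, were heterozygous for a deficiency of Cdyl, a chromatin co-repressor with a chromodomain, and the other group, labelled Cdyl-KO, was homozygous for it. Each group had 3 libraries, all from C57BL/6 embryos that also carried Nr5a1-hCD271, by which cells of the Nr5a1 lineage display human CD271 and can be taken with magnetic beads (MACS). No wild-type gonads were analysed here, so a difference is between 1 and 0 intact copies of Cdyl. The labels do not say whether the libraries of a group came from separate embryos or pools, so the p-values measure only the spread between these libraries, which may be technical.

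Microtubules are hollow polymers of α- and β-tubulin dimers that start from rings of γ-tubulin, and most kinesins walk along them on energy from ATP. Transport kinesins carry vesicles, organelles and RNA, ciliary kinesins move cargo in the cilium, and mitotic kinesins build the spindle and cut the daughter cells apart. Dividing precursor cells of the early gonad need the mitotic set, whereas some isotypes and motors, such as Tubb3 and Kif5a, are best known from neurons.

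The deposited values, read as RPKM (reads normalised to gene length and library depth), were scaled per library and are called scaled RPKM here. They are per length, so levels can be compared between genes, though less surely for those that share much sequence, as the α-tubulins do. The steps between low values implied 34.6 to 45.1 M reads per library, and a member rested on about 54 (Tubb3) to 41087 (Tubb5) reads in a library. Cdyl itself measured 7.77, 8.06 and 8.22 scaled RPKM in Cdyl-Het against 6.77, 6.93 and 7.07 in Cdyl-KO. No library of Cdyl-KO reached the lowest of Cdyl-Het, but the log2 change of -0.19 did not pass the threshold (limma, adjusted p = 0.0702). The labels do not say which segment of Cdyl was lost, so a value over the whole gene checks them only in part. The marker genes of gonadal somatic cells were present, with 7 of 8 listed and a summed level of 314 to 361 in Cdyl-Het and 349 to 390 in Cdyl-KO. Of these 7, 3 were higher in Cdyl-KO (42.9%, against 4.67% of all genes higher). They were Emx2, Nr0b1 and Lhx9, at 0.57, 0.50 and 0.46 (limma, adjusted p = 0.0129, 0.00907 and 0.0273). The other 4 did not pass, with Nr5a1 and Gata4 below 0.

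The promoters of the members that the results turn on are shown first, from RefSeq on GRCm38.p6, as 300 bases from 250 before to 50 after the start of the gene. Of the 54 members, 43 had an entry. Kif26a and Tubb3 are the members that rose in Cdyl-KO, Kif26b is the closest relative of Kif26a, and Tubb5 has the highest measured level. Capitals mark CAGCACC or GGACAG on either strand in Kif26a and Tubb3, TTTGAA in Kif26b and CCAAT in Tubb5.
Kif26a, chr12:112145958-112146257, plus strand: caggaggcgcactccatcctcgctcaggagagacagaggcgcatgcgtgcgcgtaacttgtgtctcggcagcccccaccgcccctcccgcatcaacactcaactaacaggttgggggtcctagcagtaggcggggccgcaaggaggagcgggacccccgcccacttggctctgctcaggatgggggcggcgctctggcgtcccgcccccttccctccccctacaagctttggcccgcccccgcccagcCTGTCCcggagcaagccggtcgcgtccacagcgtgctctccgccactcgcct
Tubb3, chr8:123411303-123411602, plus strand: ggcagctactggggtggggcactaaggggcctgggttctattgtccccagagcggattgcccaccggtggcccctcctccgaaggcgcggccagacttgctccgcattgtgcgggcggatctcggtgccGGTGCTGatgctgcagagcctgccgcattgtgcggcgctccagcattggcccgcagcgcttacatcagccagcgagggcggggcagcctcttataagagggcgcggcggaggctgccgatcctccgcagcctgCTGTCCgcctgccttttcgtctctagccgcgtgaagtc
Kif26b, chr1:178528875-178529174, plus strand: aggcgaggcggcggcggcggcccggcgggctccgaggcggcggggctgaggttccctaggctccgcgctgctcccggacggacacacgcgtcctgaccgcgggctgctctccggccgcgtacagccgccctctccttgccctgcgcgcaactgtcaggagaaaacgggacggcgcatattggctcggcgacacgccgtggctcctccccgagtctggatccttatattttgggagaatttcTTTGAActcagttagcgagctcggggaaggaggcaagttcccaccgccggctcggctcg
Tubb5, chr17:35838252-35838551, minus strand: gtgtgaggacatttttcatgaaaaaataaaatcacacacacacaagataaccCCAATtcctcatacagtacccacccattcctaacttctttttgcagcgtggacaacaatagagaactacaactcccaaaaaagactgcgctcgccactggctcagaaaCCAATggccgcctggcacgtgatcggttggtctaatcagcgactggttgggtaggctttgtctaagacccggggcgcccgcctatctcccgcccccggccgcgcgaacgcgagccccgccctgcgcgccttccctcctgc

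CAGCACC and GGACAG are the left and right blocks of RE1, the element bound by the neuronal repressor REST. The Tubb3 window held both, but far apart and not in the order of RE1. Read on the other strand, its GGACAG comes before its CAGCACC. The Kif26a window held only the right block, as CTGTCC. Single blocks also occur elsewhere: CAGCACC stood in 8.14% and GGACAG in 24.7% of the 27025 RefSeq promoters of this length. Each stood in 10 of the 43 member promoters (23.3%). For the right block this was near its share of all promoters. For the left block it was above that share, and above the 8.95% of promoters of genes in the files. That difference was not tested. These matches are a description of the letters in the windows.

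Among the mitotic kinesins the promoters shared TTTGAA, the core of the cell-cycle homology region (CHR) of many genes used late in the cell cycle. It was present on either strand in 9 of 11 mitotic kinesin promoters (81.8%), against 20.2% of all RefSeq promoters, 13.4% of the 8593 promoters of genes in the files and 1 of 10 transport kinesin promoters. In Kif11, Kif15, Kif18b, Kif20b, Kif22, Kif23 and Kif4 the match lay between 19 bases before and 19 bases after the annotated start. Their windows of 40 bases follow, with the match in capitals (TTCAAA is the same letters on the other strand).
Kif11, chr19:37376346-37376385, plus strand: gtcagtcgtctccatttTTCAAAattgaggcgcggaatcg
Kif15, chr9:122951045-122951084, plus strand: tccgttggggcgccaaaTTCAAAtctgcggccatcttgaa
Kif18b, chr11:102925099-102925138, minus strand: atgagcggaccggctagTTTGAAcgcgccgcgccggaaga
Kif20b, chr19:34922348-34922387, plus strand: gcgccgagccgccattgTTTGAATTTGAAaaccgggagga
Kif22, chr7:127042415-127042454, minus strand: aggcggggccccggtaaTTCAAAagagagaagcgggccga
Kif23, chr9:61946775-61946814, minus strand: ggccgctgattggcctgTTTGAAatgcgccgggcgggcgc
Kif4, chrX:100626067-100626106, plus strand: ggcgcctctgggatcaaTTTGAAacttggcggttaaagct

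CCAAT, the box bound by NF-Y, stood in 7 of 11 mitotic kinesin promoters and in 41.1% of all promoters. CCGCCC, the GC box, stood in 30 of 43 member promoters and in 71.7% of the promoters of genes in the files. TATAAA stood in 5, TTTAAA (a variant of the CHR) in 4 and CACGTG (the E-box) in 3 of 43 member promoters, against 8.1%, 10.6% and 12% of the promoters of genes in the files. GCGCTGTCC, a longer form that contains the right block of RE1, stood in 1 of 43, that of Kif1c. Both strands were read for all 9 motifs.

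Across the members, 2 of 54 (3.70%) passed the threshold, against 7.50% of all 11736 genes. Both were higher in Cdyl-KO, against 4.67% of all genes higher, and none was lower, against 2.83% of all genes lower. At an unadjusted p under 0.05 there were 8 higher and 4 lower members, against 14.2% and 11.2% of all genes and 25.4% in either direction. The libraries of the 2 groups did not overlap for 18 of 54 members (33.3%), against 31.6% of all genes. Of these 18, 9 lay above (17.1% of all genes did) and 9 below (14.5% of all genes did). The shares of members were thus near those of all genes, and the share that passed was lower. The median log2 change was 0.03 over members and 0.00 over all genes. For 47 members the change was smaller than 0.25 in size, and for 48 the 95% confidence interval lay within 0.5 of 0. In both groups every one of the 54 members averaged 1 RPKM or more as deposited, so none was listed only through the group in which it was higher.

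**Figure D1:**
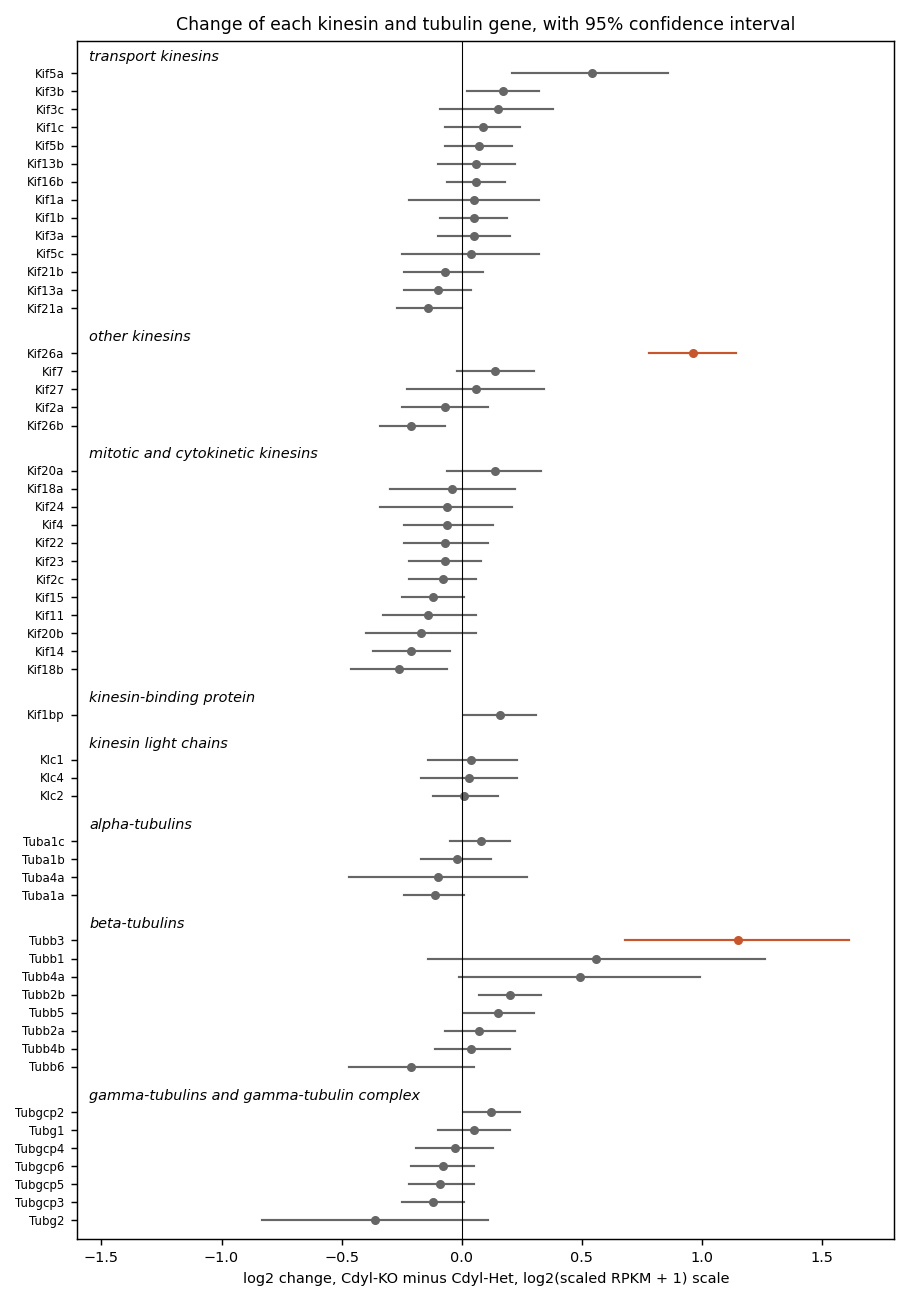
The horizontal axis gives the log2 change of each of the 54 members (points) with its 95% confidence interval (lines), grouped by role, and orange marks the members past the threshold. Kif26a at 0.96 and Tubb3 at 1.15 stand right of the rest, while 47 of 54 points lie within 0.25 of 0.

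Kif26a rose about 2-fold in Cdyl-KO. It encodes an atypical kinesin that binds microtubules without motor ATPase activity, and in mice it restrains GDNF-Ret signalling in enteric neurons. The gene (ENSMUSG00000021294.7) lies at chr12:112146208-112181747 on the plus strand of mm10, no other gene's exons overlap it, and none of its 50-base windows is shared with another transcript. Its level was 13.2, 11.501 and 10.8 scaled RPKM in Cdyl-Het against 23.1, 24.5 and 24.3 in Cdyl-KO. The lowest Cdyl-KO library was well above the highest Cdyl-Het library. The group means were 11.9 ± 1.25 and 23.97 ± 0.769 (SD, n = 3), a ratio of 2.02. The log2 change was 0.96 with an SE of 0.08 and a 95% interval of 0.78 to 1.14 (limma, adjusted p = 0.00168), and it passed under all 13 alternatives, with adjusted p-values of 0.000925 to 0.0157. About 3242 to 7044 reads per library stood behind it.

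Kif26b, its paralog, which in mice is needed for kidney development, measured 10.6, 10.97 and 10.2 scaled RPKM in Cdyl-Het against 8.63, 8.91 and 9.55 in Cdyl-KO. The groups did not overlap, with Cdyl-KO below, the opposite order to Kif26a. The log2 change of -0.21 (95% interval -0.34 to -0.07) did not pass (limma, adjusted p = 0.0785), and it passed only without scaling between libraries, at -0.34 (adjusted p = 0.0129). Exons of Gm16564 on the other strand overlap Kif26b, and no source used here gives the strand setting of the counting. As a share of the pair's summed level, which does not depend on the scaling, Kif26a made up 55.6%, 51.2% and 51.6% in Cdyl-Het against 72.8%, 73.3% and 71.8% in Cdyl-KO. The pair was near balance in every Cdyl-Het library and leaned to Kif26a in every Cdyl-KO library (two-sided exact permutation test, p = 0.1, the smallest that 3 against 3 can give). This share was not planned beforehand and follows largely from the rise of Kif26a, so the test is no separate evidence of that rise.

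The other kinesins outside the mitotic and transport groups were Kif7, Kif27 and Kif2a. Kif7, which organises the tip of the cilium for Hedgehog signalling, measured 5.84, 5.75 and 6.29 in Cdyl-Het against 6.32, 6.46 and 7.28 in Cdyl-KO, without overlap, and its log2 change of 0.14 did not pass (limma, adjusted p = 0.243). Its exons overlap Ticrr on the other strand. Kif27, a relative of Kif7, and Kif2a, which takes tubulin off microtubule ends, had changes of 0.06 and -0.07 and did not pass.

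**Figure D2:**
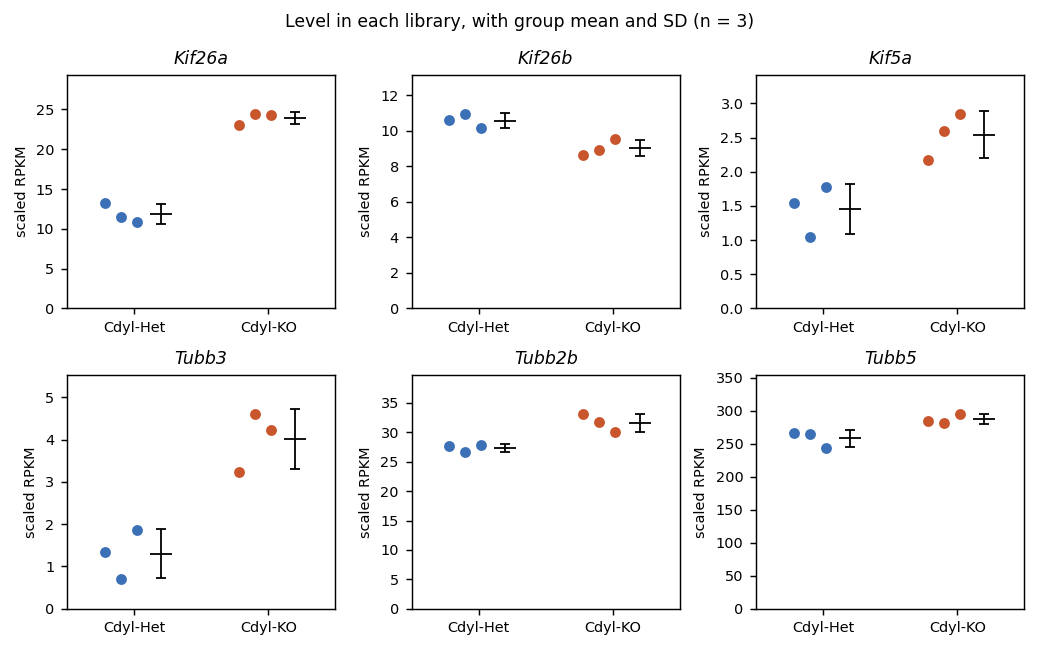
Each panel plots 1 gene, with its level in scaled RPKM on a vertical axis that starts at 0, 1 point per library, and the group mean with its SD beside the points (n = 3). The groups are apart in all 6 panels, widest for Kif26a and Tubb3, the only ones that passed the threshold. Among these 6 genes, the Cdyl-KO points are the lower ones only for Kif26b. All 6 belong to the 18 of 54 members with groups apart (33.3%, against 31.6% of all genes), of which 9 had Cdyl-KO below.

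None of the 14 transport kinesins passed the threshold. Kif5b, the ubiquitous heavy chain of conventional kinesin, had the highest level among them, at 33.3, 32.9 and 30.2 scaled RPKM in Cdyl-Het against 34.3, 32.3 and 34.7 in Cdyl-KO. These groups overlapped, and the log2 change was 0.07 with a 95% interval of -0.07 to 0.21 (limma, adjusted p = 0.503), or -0.07 without scaling. Kif5a, the heavy chain known from neurons, measured 1.54, 1.05 and 1.78 in Cdyl-Het against 2.18, 2.60 and 2.85 in Cdyl-KO. The groups did not overlap, but the log2 change of 0.54 (95% interval 0.21 to 0.86) did not pass (limma, adjusted p = 0.0620), nor did it under any alternative that could be fitted (0.0598 to 0.163). As a share of the summed Kif5a, Kif5b and Kif5c level, Kif5a was 4.04% ± 1.09 in Cdyl-Het and 6.53% ± 0.804 in Cdyl-KO (SD, n = 3), and Kif5b was 89.0% ± 2.43 and 86.8% ± 1.64.

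The remaining transport kinesins moved little. Kif3b, a motor of the kinesin-2 complex that serves the cilium, measured 7.95, 8.23 and 7.33 in Cdyl-Het against 8.93, 8.47 and 9.41 in Cdyl-KO, without overlap, with a log2 change of 0.17 that did not pass (limma, adjusted p = 0.151). Its partner Kif3a had 0.05 and the alternative partner Kif3c 0.15, and the groups overlapped for both. Kif1a, Kif1b and Kif1c, carriers of vesicles and, for Kif1b, mitochondria, had changes of 0.05, 0.05 and 0.09. Kif21a, which restrains microtubule growth, was lower in every Cdyl-KO library (4.792, 4.588 and 5.002) than in every Cdyl-Het library (5.432, 5.139 and 5.525), with a log2 change of -0.14 that did not pass (limma, adjusted p = 0.197). Of the 14 changes, 11 were above 0 with a median of 0.06, whereas without scaling 3 were above 0 with a median of -0.07, where the median of all genes was -0.12. The summed level of all 31 kinesins was 265.5, 260.9 and 245.6 scaled RPKM in Cdyl-Het against 267.9, 266.2 and 272.3 in Cdyl-KO (two-sided exact permutation test, p = 0.1, the smallest possible), and it differed by -5.56% without scaling. The means of the scaled sum were 257.3 in Cdyl-Het and 268.8 in Cdyl-KO. Kif26a, which is part of the sum, rose from a mean of 11.9 to 23.97, at least as much as the sum itself. The sum without Kif26a was not tested, so the test is no evidence of a rise of the other kinesins.

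None of the 12 mitotic and cytokinetic kinesins passed the threshold either. Their changes ran from -0.26 to 0.14 with a median of -0.07, and 11 of 12 were below 0, against 50.2% of all genes. Left unscaled, 12 of 12 were below 0, but so were 9052 of all 11736 genes. With scaling, all 12 intervals lay within 0.5 of 0. Kif20a, a motor of the central spindle in cytokinesis, had the highest level, at 21.4, 20.9 and 17.8 scaled RPKM in Cdyl-Het against 23.2, 20.6 and 22.5 in Cdyl-KO. It was the only one above 0, with overlapping groups and a log2 change of 0.14 (limma, adjusted p = 0.350), which was 0.00 without scaling. Its exons overlap Cdc23 on the other strand.

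Within the mitotic set, Kif18b, which shortens astral microtubules, had the change farthest below 0. It measured 5.85, 6.75 and 7.09 in Cdyl-Het against 4.85, 5.79 and 5.29 in Cdyl-KO. The groups did not overlap, by a narrow margin, and the log2 change of -0.26 did not pass (limma, adjusted p = 0.112). Kif14, which acts with citron kinase in cytokinesis, was likewise apart at 3.33, 3.32 and 3.59 against 2.66, 2.97 and 2.81, with -0.21 (limma, adjusted p = 0.106). Kif15, a spindle motor that can stand in for Kif11, was the third with groups apart (-0.12), and Kif11, the motor that pushes the spindle poles apart, had -0.14 with overlapping groups. Kif14, Kif15 and Kif18b passed as lower only without scaling, at adjusted p-values of 0.0306, 0.0341 and 0.0352 (limma).

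By library, the median level of the 12 mitotic kinesins relative to each gene's mean was 0.07, 0.07 and -0.02 in Cdyl-Het against -0.10, -0.02 and -0.08 in Cdyl-KO on the log2 scale. The third Cdyl-Het library thus sat with the Cdyl-KO libraries. Their summed level was 97.5, 97.7 and 88.0 scaled RPKM in Cdyl-Het against 89.2, 90.6 and 89.2 in Cdyl-KO, and the groups overlapped (two-sided exact permutation test, p = 0.4). A separate list of 24 spindle and mitosis genes, among them Aurkb, Plk1 and Cdk1, had 0 higher and 0 lower and a median of -0.03. At an unadjusted p under 0.05, 1 of these was higher and 7 were lower, against 14.2% and 11.2% of all genes.

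**Figure D3:**
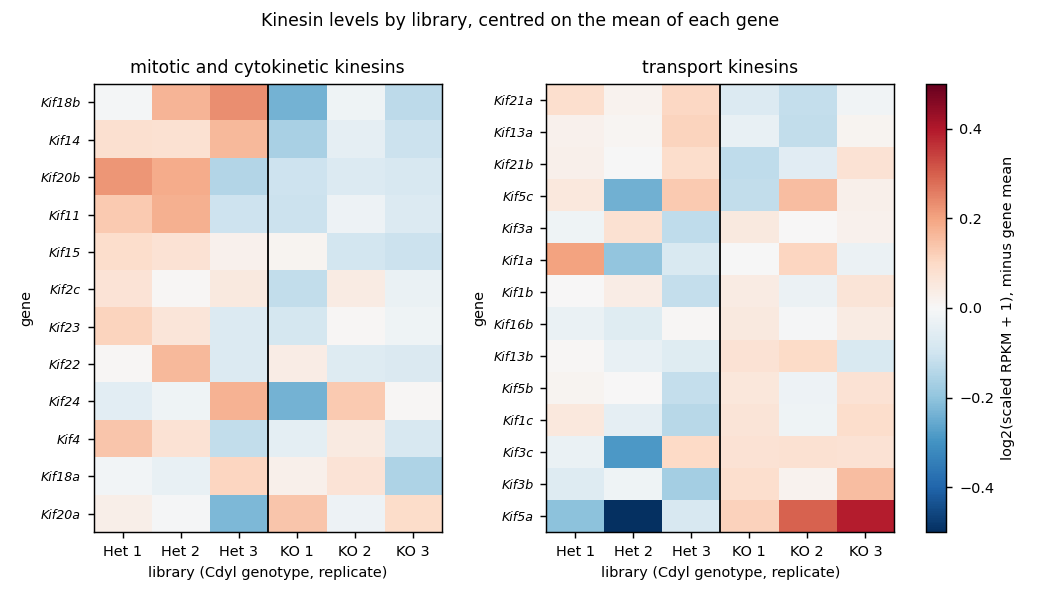
Colour gives the log2(scaled RPKM + 1) level of each mitotic (left) and transport (right) kinesin in each library minus the gene's mean over the 6 libraries, with values beyond 0.5 drawn at the end of the scale. The mitotic rows are mostly red in the Cdyl-Het libraries 1 and 2 and pale or blue in Cdyl-KO, the Cdyl-Het library 3 is mixed, and Kif5a shows the strongest contrast on the right.

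The 3 kinesin light chains, which link conventional kinesin to its cargo, had changes of only 0.01 to 0.04. Klc1, the most abundant, measured 20.7, 17.6 and 17.1 scaled RPKM in Cdyl-Het against 18.5, 19.99 and 18.6 in Cdyl-KO, so the groups overlapped (log2 change 0.04, 95% interval -0.14 to 0.23, limma, adjusted p = 0.769). Without scaling all 3 changes fell below 0, to a median of -0.11, close to the -0.12 of all genes. Kif1bp, a protein that binds kinesins and restrains their motor domains, measured 6.85, 6.70 and 6.08 in Cdyl-Het against 7.29, 7.13 and 7.86 in Cdyl-KO. Its groups did not overlap, and the change of 0.16 did not pass (limma, adjusted p = 0.176).

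Tubb3, the β-tubulin used as a neuronal marker, was the other member that rose, about 3-fold. The gene (ENSMUSG00000062380.4) lies at chr8:123411424-123422015 on the plus strand of mm10, within the annotated span of Gm20388, but no exon of another gene overlaps it and none of its 50-base windows is shared. Its level was 1.33, 0.709 and 1.87 scaled RPKM in Cdyl-Het against 3.24, 4.61 and 4.22 in Cdyl-KO. The groups were apart, at low levels that rest on about 54 to 358 reads a library. The means were 1.30 ± 0.582 and 4.02 ± 0.707 (SD, n = 3), a ratio of 3.08. The log2 change was 1.15 with an SE of 0.20 and a 95% interval of 0.68 to 1.61 (limma, adjusted p = 0.0195). The call was lost without Cdyl-KO replicate 2 (1.06, adjusted p = 0.0624) and without Cdyl-KO replicate 3 (1.12, adjusted p = 0.0604). It was also lost with a replicate block (1.15, adjusted p = 0.0508).

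Some markers of other cell types differed as well, and in RNA from a bulk of cells, fewer cells of a type and less RNA per cell cannot be told apart. Of 19 neuron markers, 6 were listed (Stmn2, Nefl, Nefm, Map2, Gap43 and Ina), none at 0, with a summed level of 14.6 to 18.3 scaled RPKM in Cdyl-Het and 21.2 to 23.6 in Cdyl-KO. Nefm, a neurofilament subunit, was the only 1 that passed (16.7% of the 6, against 4.67% of all genes higher). It rose from 6.01 to 11.53 (log2 change 0.84, limma, adjusted p = 0.00195) and sets the difference in the sum. Without it the other 5 summed to 8.94, 8.95 and 11.7 in Cdyl-Het against 9.50, 11.498 and 10.7 in Cdyl-KO, with overlap. Stmn2 and Ina had Cdyl-Het means below 1, so they are listed only through Cdyl-KO, which tilts the sum toward that group. Every Cdyl-KO library was also above every Cdyl-Het library for Ina (means 0.742 and 1.52) and Map2 (2.24 and 2.57). Neither passed (limma, adjusted p = 0.0714 and 0.340). Gap43, a protein of growing axons, measured 2.02 and 1.38, the other way round, and did not pass (limma, adjusted p = 0.151). The other 13, among them Elavl3, Isl1 and Th, were not analysed here. The 7 listed endothelial markers summed to 29.2 to 32.3 in Cdyl-Het and 19.1 to 21.3 in Cdyl-KO. Of them 3 fell (42.9%, against 2.83% of all genes lower). The 6 listed markers of mesonephric epithelium summed to 44.3 to 50.98 and 58.8 to 66.2, mostly Krt8 and Krt18. Krt8, Krt18 and Pax8 rose, whereas Pax2, Cdh16 and Gata3 had changes of -0.20, -0.12 and -0.19 that did not pass. Mouse Ngfr, the only listed marker of neural crest and glia, measured 15.2 to 17.6 and 12.1 to 14.0. The part of these cells in the results was not tested.

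Among the other β-tubulins none passed, and the abundant isotypes set the total. Tubb5, the main isotype of dividing cells, measured 265.8, 264.1 and 243.8 scaled RPKM in Cdyl-Het against 284.2, 281.3 and 295.2 in Cdyl-KO. The groups did not overlap, and the log2 change of 0.15 (95% interval 0.01 to 0.30) did not pass (limma, adjusted p = 0.170) and was 0.01 without scaling. Tubb5 made up 71.6% ± 1.15 of the summed β-tubulin level in Cdyl-Het and 71.7% ± 1.42 in Cdyl-KO (SD, n = 3). Tubb2b, an isotype of young neurons, measured 27.6, 26.6 and 27.9 against 33.2, 31.8 and 30.1, also apart, with 0.20 (limma, adjusted p = 0.0698) and 0.06 without scaling.

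The scarcer β-tubulins varied more between libraries. Tubb4a, known from brain and myelin-forming cells, measured 3.55, 1.54 and 1.84 in Cdyl-Het against 3.19, 4.12 and 3.25 in Cdyl-KO, where 1 high Cdyl-Het library made the groups overlap. Its log2 change of 0.49 did not pass (limma, adjusted p = 0.205) and passed without that library, Cdyl-Het replicate 1 (0.74, adjusted p = 0.0259). Leaving out any other library gave adjusted p-values of 0.282 to 0.424 (limma), so the pass rests on dropping the library that made the overlap. Tubb1, the isotype of platelets, measured 3.19, 1.47 and 4.49 against 3.55, 6.33 and 4.45, and the groups overlapped (0.56, limma, adjusted p = 0.292). Tubb6 measured 6.93, 6.48 and 6.87 against 6.52, 6.18 and 4.62, the last Cdyl-KO library being low (-0.21, limma, adjusted p = 0.292). Tubb4b and Tubb2a had changes of 0.04 and 0.07.

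The α- and β-tubulin sums differed in how they compared between groups. The 4 α-tubulins, none of which passed, summed to 254.7, 271.9 and 246.7 scaled RPKM in Cdyl-Het against 253.0, 251.1 and 255.2 in Cdyl-KO, and the groups overlapped (two-sided exact permutation test, p = 0.8). The 8 β-tubulins summed to 367.0, 366.6 and 346.9 in Cdyl-Het against 395.2, 401.1 and 404.7 in Cdyl-KO, without overlap (two-sided exact permutation test, p = 0.1, the smallest possible). Relative to Cdyl-Het, the α sum differed by -1.81% and the β sum by 11.1%, and without scaling by -11.2% and 0.486%. The ratio of the α to the β sum does not depend on scaling, and it was 0.694, 0.742 and 0.711 in Cdyl-Het against 0.640, 0.626 and 0.631 in Cdyl-KO. All Cdyl-KO ratios were below all Cdyl-Het ratios (two-sided exact permutation test, p = 0.1, the smallest possible). Changes in these data rose with level, from a median of -0.09 in the 2934 genes of lowest level to 0.07 in the 2934 of highest level, and the sums are set by genes of high level. The part of that trend in the β-tubulin sum was not tested.

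The isotype mix of α-tubulin was led by Tuba1b, with 48.7% ± 0.643 of the sum in Cdyl-Het and 48.7% ± 0.829 in Cdyl-KO (SD, n = 3). Tuba1b, a housekeeping isotype, measured 123.7, 134.3 and 118.7 scaled RPKM in Cdyl-Het against 120.97, 122.8 and 126.2 in Cdyl-KO (log2 change -0.02, limma, adjusted p = 0.844). Tuba1c made up 22.6%, 22.8% and 22.7% in Cdyl-Het against 24.2%, 24.4% and 24.5% in Cdyl-KO, apart by more than the spread within either group (two-sided exact permutation test, p = 0.1, the smallest possible). Tuba1a, the isotype of developing neurons, made up 27.95% ± 0.522 and 26.3% ± 0.976, and the shares overlapped. These isotypes are near-identical: 74.3% of the 50-base windows of Tuba1b, 64.3% of Tuba1a and 52.7% of Tuba1c also occur in transcripts of other genes, so their split is uncertain. The same holds for 49.6% of the windows of Tubb2a, 37.8% of Tubb4b and 36.9% of Tubb2b. Exons of Gm49450 on the same strand overlap Tuba1a and Tuba1b, and no source used here says how reads there were counted. How reads from shared windows and from such overlaps were counted also bears on the level of the α sum beside the β sum. Tubb5 shares only 0.0892% of its windows, so its rank above the α-tubulins rests on that counting as well.

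**Figure D4:**
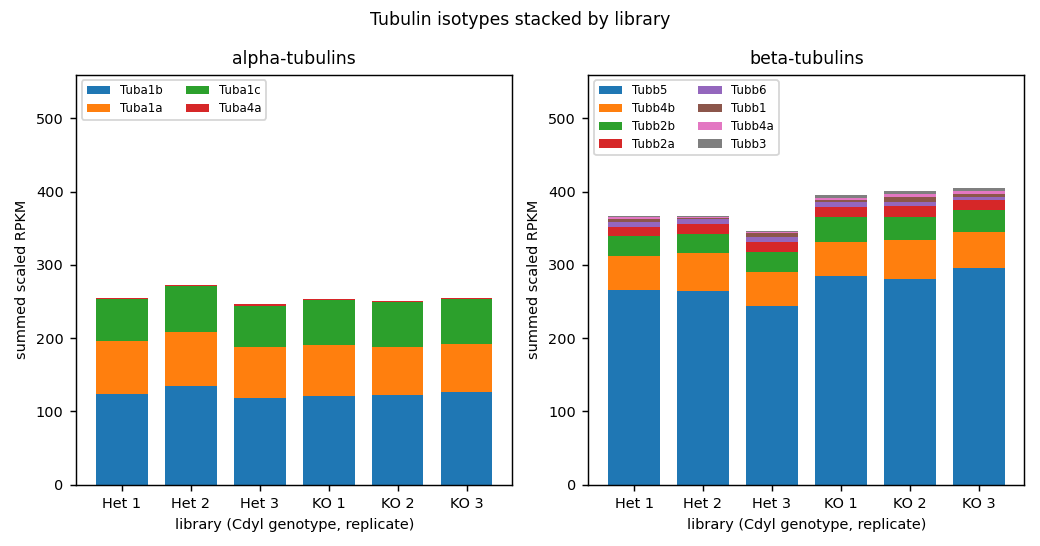
Stacked bars give the level of each α-tubulin (left) and β-tubulin (right) isotype in scaled RPKM in each of the 6 libraries, on the same axis from 0. The α-tubulin bars lie between 246.7 and 271.9 in both groups, whereas the β-tubulin bars are 346.9 to 367.0 in Cdyl-Het and 395.2 to 404.7 in Cdyl-KO, with Tubb5 as the largest block in each.

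The γ-tubulins and their ring proteins, which start new microtubules at the centrosome, had no call among 7 genes and a median change of -0.08. Tubg1, the γ-tubulin found in most cells, measured 18.2, 17.3 and 16.9 scaled RPKM in Cdyl-Het against 18.4, 16.7 and 19.3 in Cdyl-KO, with overlapping groups (0.05, 95% interval -0.10 to 0.20, limma, adjusted p = 0.678, and -0.09 without scaling). Tubg2 measured 2.89, 2.50 and 3.91 against 1.40, 2.94 and 2.33, also overlapping (-0.36, limma, adjusted p = 0.308). The ring proteins ranged from -0.12 for Tubgcp3 to 0.12 for Tubgcp2, and the groups were apart for Tubgcp2 (above) and for Tubgcp3, Tubgcp5 and Tubgcp6 (below). None of these passed with scaling, and Tubgcp3 and Tubgcp5 passed as lower without it (limma, adjusted p = 0.0385 and 0.0423).

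Genes that work on microtubules but are not members were read from 8 lists. In 5 lists, covering folding, modification, dynein, mitosis and intraflagellar transport, 1 gene passed, where 7.50% of all genes did. Of 21 tubulin folding genes, such as the chaperonin subunits, 0 passed (median -0.01). Of 12 enzymes that modify tubulin, 0 passed (median 0.06), and of 20 intraflagellar transport genes 0 passed (median 0.04). Of 21 dynein and dynactin genes, which drive transport toward the minus end, 18 were above 0 with a median of 0.10 (7 without scaling). The gene that rose there was Dynll2, a dynein light chain, from 13.97 to 19.1 scaled RPKM (log2 change 0.43, limma, adjusted p = 0.0160). Leaving out Cdyl-Het replicate 2 gave an adjusted p of 0.0597, leaving out Cdyl-KO replicate 1 gave 0.0570 and leaving out Cdyl-KO replicate 2 gave 0.0527.

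The other 3 lists held 10 calls, all higher in Cdyl-KO, and their difference from the other lists was not tested. Of 21 microtubule-associated and plus-end proteins, 3 rose (14.3%, against 4.67% of all genes higher), and the median of the list was 0.05. Map1b, an early neuronal stabiliser of microtubules, rose from 21.1 ± 0.505 to 29.1 ± 0.862 scaled RPKM (SD, n = 3; log2 change 0.45, limma, adjusted p = 0.00581). Dclk1, a kinase of the doublecortin family, rose from 9.09 to 14.1 (0.59, limma, adjusted p = 0.0103), and Map1a rose from 5.82 to 8.56 (0.49, limma, adjusted p = 0.0139). Map1a missed the threshold without Cdyl-Het replicate 2 (0.0524) or replicate 3 (0.0642).

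Of 9 stathmins and severing enzymes, the 2 that rose (22.2%, against 4.67% of all genes) were stathmins, which bind free tubulin dimers. Stmn3, a neuronal stathmin, measured 0.876, 0.778 and 1.46 scaled RPKM in Cdyl-Het against 8.02, 9.14 and 8.86 in Cdyl-KO (log2 change 2.26, limma, adjusted p = 0.000367). Stmn1, the stathmin of dividing cells, measured 133.0, 110.7 and 113.1 against 163.1, 152.8 and 155.9 (0.40, limma, adjusted p = 0.0292). Its groups did not overlap, but its call held in only 1 of 6 fits that left out a library, with adjusted p-values up to 0.101.

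Of 20 kinesin cargo adaptors, 5 rose (25.0%, against 4.67% of all genes), and the median of the list was 0.05. Mapk8ip2, a JNK scaffold that binds the kinesin light chain, measured 0.631, 0.474 and 0.793 scaled RPKM in Cdyl-Het against 5.76, 5.52 and 5.48 in Cdyl-KO (log2 change 2.02, limma, adjusted p = 0.000199). Its Cdyl-Het mean was below 1, so it is listed only through its level in Cdyl-KO. Mapk8ip1, the related scaffold JIP1, measured 9.60, 9.08 and 8.41 against 15.9, 14.5 and 18.9 (0.79, limma, adjusted p = 0.00849). Madd and Arl8b, which link kinesins to synaptic vesicles and to lysosomes, and Kifap3, the accessory subunit of kinesin-2, rose by 0.40, 0.23 and 0.20 (limma, adjusted p = 0.0351, 0.0383 and 0.0392). Each of these 3 missed the threshold in all 6 fits that left out a library. Of the neuron markers given above only Nefm passed, and the part of neurons in the calls of these lists and in Kif5a was not tested.

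**Figure D5:**
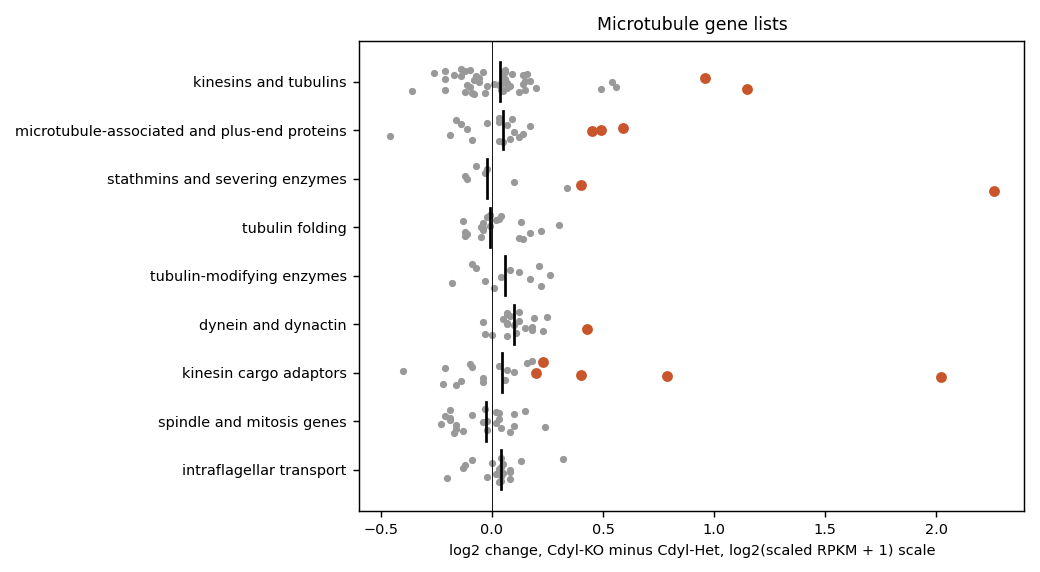
Each point is a gene, placed by its log2 change (horizontal axis), with a row for the members and for each of the 8 microtubule lists, a black bar at the median and orange for genes past the threshold. The medians lie between -0.03 and 0.10, and all orange points lie to the right of 0, the farthest being Stmn3 at 2.26 and Mapk8ip2 at 2.02.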

How the data were processed

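RNA of 3 Cdyl-Het and 3 Cdyl-KO libraries was measured. Per the labels' protocols, total RNA of cells isolated by hCD271 was made into libraries with a stranded SMARTer Pico kit. The submitters' processing notes name mm10, STAR, Subread and featureCounts 1.6.4, and no source used here gives the annotation, strand setting or gene filter. The authors deposited 1 value per gene and library with no unit named, and these deposited values were taken as RPKM because they are not whole, are highest for very short genes and sum to 191953 to 209917 per library. Their steps gave the implied depth: among low values of single-exon genes of up to 1000 bp, 88.5% to 92.8% came out as whole reads, with a tolerance of 0.02 and up to 200 reads. The higher group mean of a gene was never under 1.005, so weakly expressed genes are mostly left out.

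Values were divided by a factor per library, an unweighted trimmed mean of log ratios (30% of ratios and 5% of levels trimmed). The log2 of scaled RPKM plus 1 was fitted with limma 3.58.1 in R 4.3.3 (empirical Bayes with trend, group as the only term), with Benjamini-Hochberg adjustment across the 11736 genes and a threshold of 0.05. Changes are Cdyl-KO minus Cdyl-Het on this scale, which understates changes of low genes. Sums and shares were compared by two-sided exact permutation tests over libraries, each given unadjusted. Positions and overlaps come from GENCODE M21 and promoters from RefSeq GRCm38.p6. The fit was tested on simulated data. Alternatives were no scaling, median-of-ratios scaling, a pseudocount of 0.1, a filter on a mean of at least 5 scaled RPKM, a spread without trend, a replicate block and leaving out each library.

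Named were Cdyl, members past the threshold, the highest member of each role, members with groups apart and a change of at least 0.5, and up to 4 called genes of each microtubule list with the smallest p. Other genes given with values were chosen after their values were seen. The members and lists were chosen with earlier results of these data known.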

Additional observations from a re-analysis of the deposited data

How the results depend on the processing

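Against 880 genes called as reported, 1863 were called without scaling, 337 with a replicate block, and 253 to 647 when a library was left out. Members called higher were 2 as reported, 1 with a filter on a mean of at least 5 scaled RPKM (Tubb3 is below it), 1 with the replicate block (Tubb3 had an adjusted p of 0.0508) and 1 to 3 when a library was left out. Members called lower were 0 as reported and 9 without scaling (Kif13a, Kif14, Kif15, Kif18b, Kif21a, Kif26b, Tuba1a, Tubgcp3 and Tubgcp5), where the median of all genes was -0.12 and 305 genes were called higher and 1558 lower. Without scaling, 18 of the 29 members above 0 turned below 0 and none turned upward, among them Tubg1 (-0.09), Klc1 (-0.09), Kif5b (-0.07) and Kif20a (0.00), and the summed kinesin level turned (-5.56%). When a library was left out, the change ranged from -0.06 to 0.03 for Tuba1b, from -0.01 to 0.12 for Klc1, from -3.88% to 0.966% for summed α-tubulin and from -0.574 to 0.846 percentage points for the Tubb5 share. The cause was not tested. Scaling against Cdyl-KO replicate 1, chosen after seeing the data, called 929 genes. Libraries with the same replicate number did not deviate together (correlations of -0.05, -0.27 and -0.05, against -0.14 to 0.22 for other pairs between the groups). So few libraries cannot show whether the number stands for a shared origin. The calls lost with the block therefore stay uncertain. Members at low levels, such as Tubb3 with about 54 reads in 1 library, are limited by depth.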

Other observations

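Cenpe and Kifc1, kinesin superfamily genes with other symbols, come from the list of spindle and mitosis genes. Their changes lay within the range of the mitotic kinesins. Cenpe, the kinesin of the kinetochore, measured 19.4, 20.4 and 16.95 scaled RPKM in Cdyl-Het against 15.8, 16.95 and 16.6 in Cdyl-KO, with a log2 change of -0.19 that did not pass (limma, adjusted p = 0.175). Kifc1, a minus-end motor that gathers spindle poles, measured 7.76, 7.07 and 6.96 against 6.68, 7.61 and 6.79 (-0.04, limma, adjusted p = 0.740). Both pairs of groups overlapped.

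Tubb2a and Tubb2b lie on chromosome 13 at 1.58 and 1.53 Mb from Cdyl. Of the 33 listed genes within 5 Mb of Cdyl, 2 were higher and 0 were lower, which is 6.06% against 7.50% of all genes, and neither tubulin was among them.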
